A study of Mus musculus with 2 samples.

Results

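Cajal-Retzius cells were examined in single-cell RNA sequencing of the newborn mouse cortex. They were 66 of the 12846 cells kept, 32 of 6766 from the WT library and 34 of 6080 from the cKO library. A cell was taken as Cajal-Retzius by its unique molecular identifiers (UMIs, each standing for 1 captured RNA molecule): at least 3 of Reln, at least 1 of Trp73, Lhx5 and Lhx1 together, at most 1 of the GABA-synthesis genes Gad1 and Gad2 together, and fewer than 3 of the cell cycle genes Mki67, Top2a and Cenpf together. Barcodes entered with 500 or more genes and no more than 10% of their UMIs mitochondrial. Since these values chose the cells, the levels of the named genes in them are a description. The names rest on markers, so the cells are Cajal-Retzius-like in the strict sense.

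The study asked what the STING pathway does in brain development. It made 1 library of cortical cells per genotype, both from C57BL/6 mice at birth (P0). The WT library was labelled wild type. The study's section on these single cells calls the control both STINGfl/fl and WT, whereas the label says only WT. The cKO library was STINGf/f;Nestin-Cre, in which Cre recombinase under the Nestin promoter acts in neural progenitors and their descendants. The labels name telencephalic tissue and the study's methods the cerebral cortex, and the number of animals behind each library is not given. With 1 library per genotype, no difference between genotypes has a replicate check and no test was made. Each interval is at 95% and covers counting error only. The depths and makeups of the libraries are part of every difference.

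Cajal-Retzius cells are among the first neurons of the cortex. They arise at its margins, mostly from the cortical hem, septum and pallial borders, and spread under the pia in the marginal zone, the future layer 1. There they secrete Reelin, the large glycoprotein made from Reln, which binds the receptors Vldlr and Lrp8 on migrating neurons and signals through the adaptor Dab1 to order the cortical layers. They are glutamatergic, depend on the p53 relative p73 (Trp73), are guided by the chemokine Cxcl12 from the meninges, and mostly die in the first postnatal weeks. Interneurons that also make Reelin express Gad1 and Gad2, which is why those genes were used to leave them out.

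The WT library held 10715 barcodes with 69554624 UMIs and the cKO library 9198 barcodes with 67448785 UMIs. The libraries shared 19 barcodes, 8 of them among kept cells and 0 among the Cajal-Retzius cells. Cajal-Retzius cells had a median of 12892.5 UMIs in WT (2332 to 35161) and 9335 in cKO (1533 to 50241), against medians of 6653 and 7629 for all kept cells. Doublet scores marked 131 WT cells, 3 of them Cajal-Retzius cells, and 0 cKO cells, so the automatic call had not worked in cKO and doublets were left in. The deleted gene, Tmem173 (STING), had 0 UMIs in the Cajal-Retzius cells of either library, so it could not check the labels in these cells. All kept cells together held 132 of its UMIs in WT and 18 in cKO. Xist had 0 UMIs in WT and 491 in cKO Cajal-Retzius cells, and the Y-linked Eif2s3y 36 and 0, so sex and genotype cannot be told apart here.

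The selection narrowed in 4 steps. Reln reached 3 UMIs in 138 WT and 155 cKO cells. Of these, 73 and 79 also had a UMI of Trp73, Lhx5 or Lhx1, and 67 and 76 of those had at most 1 UMI of Gad1 and Gad2. The cell cycle limit then left 32 and 34. Most Reln cells without the other markers were of another kind, as 44 of 65 in WT and 59 of 76 in cKO had at least 2 UMIs of Gad1 and Gad2. Around the thresholds, 3 WT cells and 1 cKO cell were taken with exactly 3 Reln UMIs, and 2 cells in each library met every other condition with 2. Cell cycle UMIs stood at 2 in 9 WT and 11 cKO cells taken, and at 3 in 13 and 11 cells left out.

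The cell cycle limit acted almost wholly through Cenpf, which encodes a kinetochore protein of dividing cells. Before the limit, Cenpf had 182 UMIs in 55 of 67 WT cells, a level of 175 CPM (the UMIs of a gene per 1000000 UMIs of the same cells; interval 150.4 to 202). In cKO it had 261 UMIs in 57 of 76 cells, 192 CPM (169 to 216). Under the limit, Cajal-Retzius cells had 60.9 and 56.6 CPM. Projection neurons (at least 3 UMIs of Neurod2 and Neurod6) and interneurons (at least 3 of Gad1 and Gad2 with a Dlx gene) were defined in the same libraries under the same limit, and had 2.87 CPM in WT and 1.27 in cKO, and 4.27 and 1.86. Other genes of dividing cells had few UMIs in the cells before the limit: Mki67 had 4 UMIs in WT and 7 in cKO, Top2a 2 and 5, Cdk1 3 and 0, and Ccnb1 1 and 0. The cells left out by the limit, 35 in WT and 42 in cKO, were deeper (medians of 16563 and 21620 UMIs). They are given beside the Cajal-Retzius cells as cells outside the limit. They carried 2869 CPM of Reln in WT and 3439 in cKO, and Ndnf in 35 of 35 and 42 of 42 cells.

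Cajal-Retzius cells were 0.473% of kept WT cells (32 of 6766, Clopper-Pearson interval 0.324 to 0.667) and 0.559% of kept cKO cells (34 of 6080, 0.388 to 0.781). The difference of 0.0863 percentage points (-0.173 to 0.353) was not detectable with these numbers of cells. With the limit set on Mki67 and Top2a alone, a setting added after seeing the data, the shares were 0.99% (0.768 to 1.26) and 1.25% (0.986 to 1.56), a difference of 0.26 points (-0.115 to 0.643). The thresholds count UMIs and so lean on depth. Cells of at least 2000 UMIs were also thinned to 2000 before selection, and cells with fewer were left out. The shares were then 0.638% of WT (40 of 6272 cells) and 0.753% of cKO cells (42 of 5576). Library ratios given below after thinning come from these cells, chosen again, so the cells changed with the depth. Shares of cells holding a gene after thinning come from the Cajal-Retzius cells first chosen. With the highest 3% of doublet scores removed, 27 WT and 33 cKO cells were left. The cKO share was the higher in every setting run, and each pair of intervals overlapped.

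**Figure D1:**
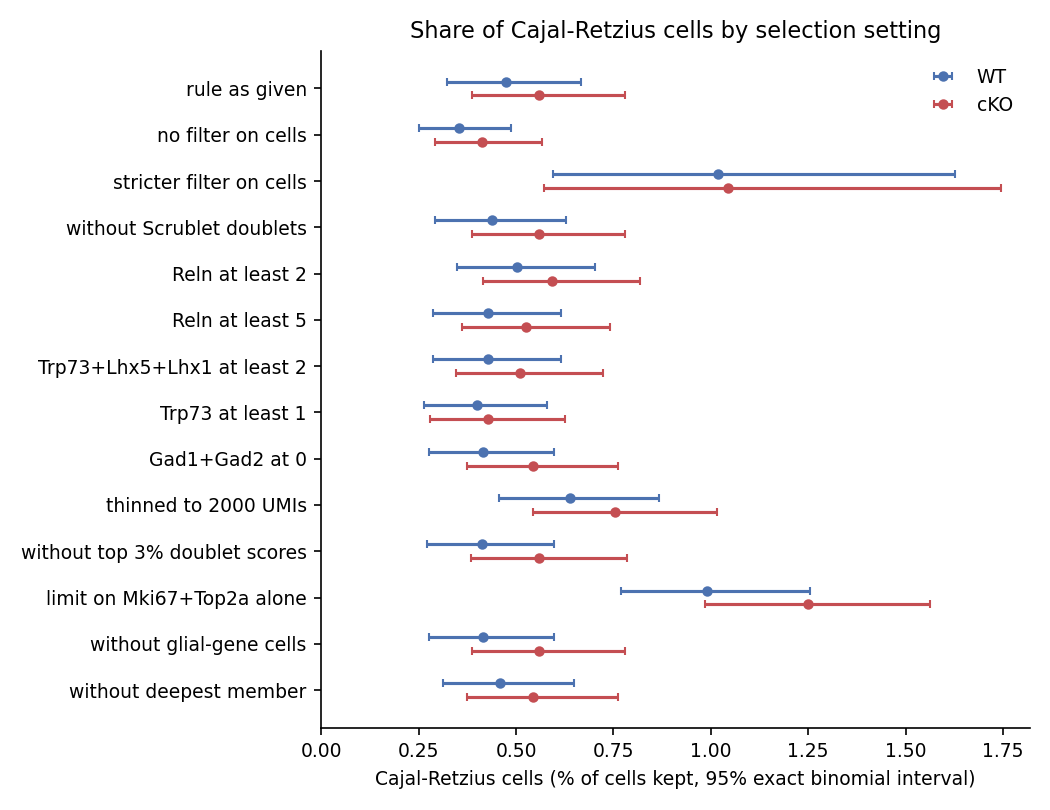
Share of Cajal-Retzius cells among the cells kept in the WT and cKO libraries under the rule as given and alternative selections; points are the percent and bars the 95% exact binomial interval, counting error only. The cKO point lies to the right of the WT point in each setting drawn, with 0.473% and 0.559% under the rule as given, and the bars of each pair overlap.

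The marker genes of these cells are read from promoters that differ widely in base composition. The 5 windows printed belong to Reln, Trp73 and Lhx1 of the rule and to Nhlh2, which the rule did not use. The messages of these genes marked the cells in both libraries. Each is the RefSeq window of 300 bases (GRCm38.p6), from 250 bases before to 50 after the start of transcription, written 5′ to 3′ on the strand of the gene. The windows are Reln at chr5:22344656-22344955, Trp73 at chr4:154097124-154097423 (the internal promoter) and chr4:154139826-154140125 (the upstream promoter), Lhx1 at chr11:84525485-84525784, all on the minus strand, and Nhlh2 at chr3:102009895-102010194 on the plus strand. Capitals mark the letters CAGCTG, an E-box of the kind that basic helix-loop-helix factors such as Nhlh2 bind.
Reln: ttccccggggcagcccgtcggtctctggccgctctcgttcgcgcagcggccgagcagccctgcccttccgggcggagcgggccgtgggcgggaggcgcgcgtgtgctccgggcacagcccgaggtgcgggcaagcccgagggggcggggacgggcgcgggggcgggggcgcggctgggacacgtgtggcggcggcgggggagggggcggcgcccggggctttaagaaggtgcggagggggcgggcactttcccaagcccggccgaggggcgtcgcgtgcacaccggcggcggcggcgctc
Trp73 internal: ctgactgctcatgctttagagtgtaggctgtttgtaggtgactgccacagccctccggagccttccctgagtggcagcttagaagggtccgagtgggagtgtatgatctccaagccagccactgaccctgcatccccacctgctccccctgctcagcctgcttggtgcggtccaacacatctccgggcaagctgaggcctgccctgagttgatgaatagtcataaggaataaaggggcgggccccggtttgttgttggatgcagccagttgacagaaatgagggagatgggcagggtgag
Trp73 upstream: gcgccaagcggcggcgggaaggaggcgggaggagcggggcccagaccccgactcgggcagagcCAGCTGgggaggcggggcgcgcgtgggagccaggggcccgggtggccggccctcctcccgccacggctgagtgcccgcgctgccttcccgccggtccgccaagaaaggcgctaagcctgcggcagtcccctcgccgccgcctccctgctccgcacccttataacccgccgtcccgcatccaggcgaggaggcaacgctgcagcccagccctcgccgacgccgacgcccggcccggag
Lhx1: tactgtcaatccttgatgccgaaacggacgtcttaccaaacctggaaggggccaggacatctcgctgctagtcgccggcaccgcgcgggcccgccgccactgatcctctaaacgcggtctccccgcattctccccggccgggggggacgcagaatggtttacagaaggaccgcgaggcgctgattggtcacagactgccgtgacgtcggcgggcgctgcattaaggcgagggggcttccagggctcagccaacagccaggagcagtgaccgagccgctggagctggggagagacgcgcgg
Nhlh2: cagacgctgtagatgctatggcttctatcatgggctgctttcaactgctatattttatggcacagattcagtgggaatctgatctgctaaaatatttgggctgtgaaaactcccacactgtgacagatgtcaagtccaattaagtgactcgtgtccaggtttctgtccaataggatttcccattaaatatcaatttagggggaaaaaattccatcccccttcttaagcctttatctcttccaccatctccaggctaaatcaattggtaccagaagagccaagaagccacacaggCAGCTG
Guanine and cytosine made up 80.7% of the Reln window, 57.7% and 77.7% of the internal and upstream Trp73 windows, 65.7% of the Lhx1 window and 43.3% of the Nhlh2 window. CAGCTG, which reads the same on both strands, was found in the upstream Trp73 window, 187 bases before the start (position -187), and in the Nhlh2 window at position 44 after the start. It occurs in 16.3% of all 32851 promoter windows of this length. TAATTA, the core bound by LIM and other homeodomain factors and also its own reverse complement, was not found in the windows printed, and it occurs in 5.29% of all windows. A match of letters is a description and not a binding site. The windows of Lhx1 and of its divergent antisense neighbour Lhx1os shared 225 bases on opposite strands. The 2 Trp73 starts lie 42702 bases apart, and the count table gives 1 number per gene whichever start was used.

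Reln had 1030 UMIs in the 32 WT cells, from 3 to 79 per cell with a median of 32.5, and 1149 UMIs in the 34 cKO cells, from 3 to 134 with a median of 27. The levels were 2325 CPM (2185 to 2471) for WT and 2709 CPM (2555 to 2871) for cKO. The cells were few, yet they held 26.4% of all Reln UMIs of the kept WT cells and 21.5% of those of the kept cKO cells. Reln stood at 6.98 and 5.4 CPM in projection neurons and at 70.8 and 70.2 CPM in interneurons, of which 12.3% in WT and 13.7% in cKO held a Reln UMI. After thinning to 2000 UMIs, 96.9% of WT and 97.0% of cKO Cajal-Retzius cells still held Reln. The rule required at least 3 Reln UMIs, so this share largely follows from the selection and supports nothing. In microglia, which should lack it, the thinned share was 0 of 54 and 0 of 31 cells.

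The 3 transcription factors of the rule were not always captured in the same cell. Trp73 had 105 UMIs in 27 WT cells and 64 in 26 cKO cells, Lhx1 had 126 in 28 and 148 in 29, and Lhx5 had 48 in 21 and 52 in 25. All 3 were present in 19 of 32 WT and 16 of 34 cKO cells, the most frequent combination in each library. The 5 WT and 8 cKO cells without Trp73 had lower median depths, 3313 and 7267.5 UMIs against 13264 and 11545 in the cells with it. Summed, they held less Reln (1327 against 2479 CPM in WT, 1539 against 2981 in cKO). Those sums lean on a deep cell low in Reln in each library. It had 35161 UMIs with 6 of Reln in WT and 36340 with 10 in cKO. Both cells had 0 UMIs of Trp73, Ndnf, Nhlh2, Nr2f2 and Ebf3, so their own markers go against the name. They had 24 and 83 UMIs of Calb2 and 26 and 19 of Slc17a6, the most Slc17a6 of the cells taken in each library. They were kept because they met the rule, and their identity was not tested. The first is the deepest WT cell taken, but the deepest cKO cell is another, with 50241 UMIs. In the other neuron classes the 3 genes were close to absent: Lhx1 stood at 284 CPM in WT and 349 in cKO Cajal-Retzius cells against 0.0399 and 0.100 in projection neurons and 0.822 and 1.14 in interneurons. The cells outside the cell cycle limit, chosen by the same genes, had 191 and 191 CPM of it. Lhx5 shares bases with the antisense gene Gm27199 and Trp73 with Trp73os, and the strand setting of the count is not given, so part of these counts may be of the neighbours.

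**Figure D2:**
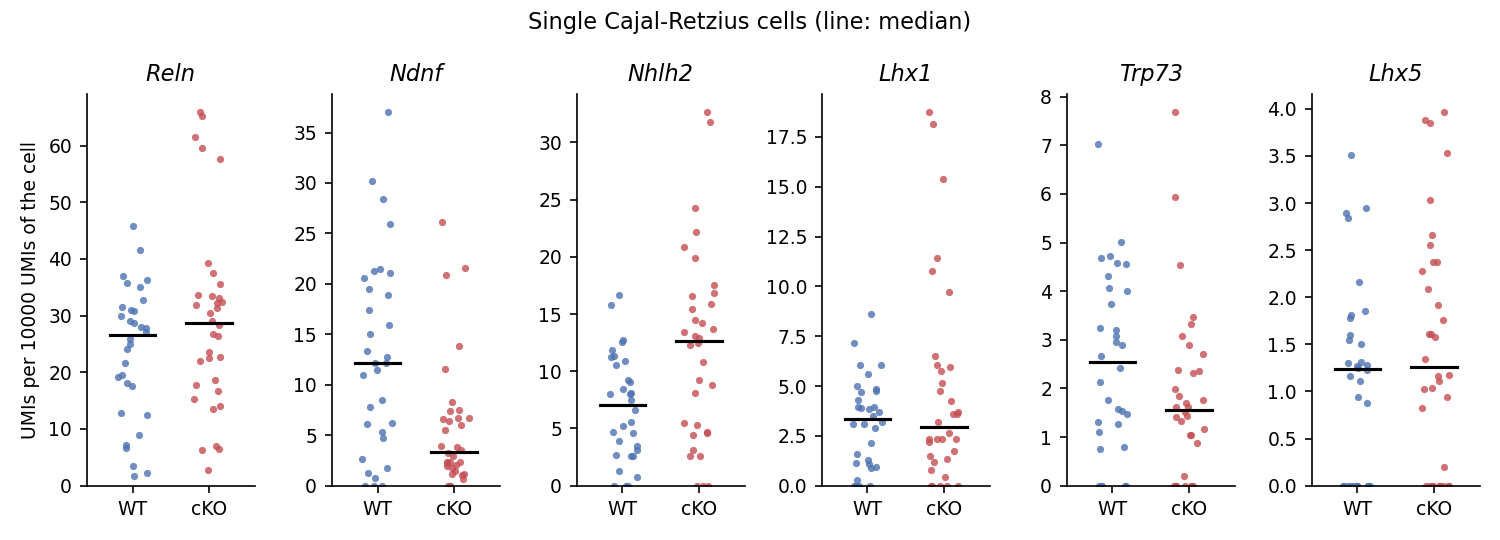
UMIs of 6 marker genes per 10000 UMIs of the cell in each of the 32 WT and 34 cKO Cajal-Retzius cells; each point is a cell and the line is the median. The median for Ndnf is 12.2 in WT and 3.37 in cKO, and that for Nhlh2 is 7.05 and 12.7. The points of the libraries overlap in range for every gene drawn.

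The deeper a cell, the more Reln it held (Spearman's rho of 0.66 over 32 WT cells and 0.73 over 34 cKO cells). Reln and Ndnf per UMI were also related within a library (0.71 and 0.52). These values describe cells of a single library each, which share its preparation and their own depth, and carry no test. Reln and Lhx1 were related in opposite directions in the libraries, at 0.37 in WT and -0.34 in cKO.

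The profile of these cells was set against that of other cortical neurons as a description, since the cells were chosen by expression. Of the genes with at least 20 UMIs in the cells of each library, 109 of 3290 (3.31%) were at least 4-fold higher than in projection neurons in both libraries with intervals apart. Without the genes of the rule they were 104 of 3285 (3.17%). Because the minimum was set on the Cajal-Retzius cells, genes high only in projection neurons could not enter this count. Of the genes that projection neurons would have brought to 20 UMIs, 57 of 3067 (1.86%) were at least 4-fold lower. Against interneurons the shares were 92 of 3290 (2.8%) higher and 56 of 3138 (1.78%) lower. With no minimum of UMIs, as used for the gene lists, 297 of 27998 genes (1.06%) were higher and 109 (0.389%) lower than in projection neurons. On the list of 10 Cajal-Retzius markers, 9 were at least 4-fold higher than in projection neurons, and Tbr1, which projection neurons of the deep layers also express, was not. The cells were chosen by 4 of the 10, so this count is a check of the label and no result.

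Ndnf, a secreted neuron-derived neurotrophic factor, had the greatest excess over projection neurons among the genes not used by the rule when 10 CPM were added to each level, the measure by which genes were ranked. It had 529 UMIs in WT, from 0 to 42 per cell with a median of 17.5, and 207 UMIs in cKO, from 0 to 37 with a median of 3. At 1194 CPM in WT (1094 to 1300.1) and 488 in cKO (424 to 559), it was 499-fold and 1830-fold above projection neurons, and these few cells held 26.8% and 18.3% of the Ndnf of all kept cells. Nhlh2, a basic helix-loop-helix factor of newborn neurons, had 300 UMIs in WT (0 to 32 per cell, median 8) and 417 in cKO (0 to 47, median 10.5). It stood at 677 CPM (603 to 758) and 983 CPM (891 to 1082), against 4.23 and 4.43 in projection neurons. Lhx1os, a long noncoding RNA that starts beside Lhx1 on the other strand, had 100 and 187 UMIs (226 CPM, 184 to 274, and 441 CPM, 380 to 509), and Cajal-Retzius cells held 39.4% and 34.6% of it. The marker most abundant in these cells was Snhg11, a noncoding host gene of small nucleolar RNAs, at 2686 CPM in WT and 3082 in cKO, 35.1-fold and 60.5-fold above projection neurons.

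**Figure D3:**
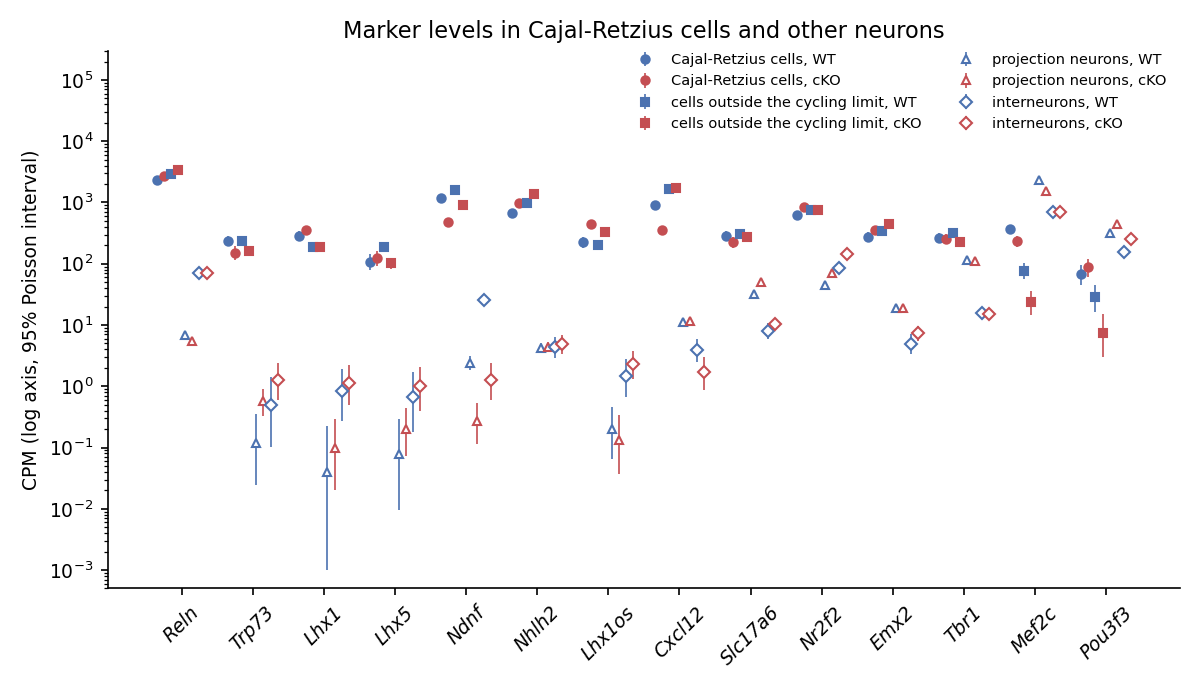
Levels of 14 genes in Cajal-Retzius cells, in the cells outside the cell cycle limit, in projection neurons and in interneurons of each library, in CPM on a log axis with 95% Poisson intervals. Reln, Trp73, Lhx1, Lhx5, Ndnf, Nhlh2 and Lhx1os lie far above both other neuron classes, least so Reln against interneurons (32.8-fold and 38.6-fold), Tbr1 lies close to projection neurons, and Mef2c and Pou3f3 lie below them.

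The other genes of greatest excess have varied roles. Cacna2d2, an auxiliary subunit of voltage-gated calcium channels, was at 329 CPM in WT and 259 in cKO, 37.6-fold and 72.7-fold above projection neurons. Ache, which encodes acetylcholinesterase, was at 264 and 212 CPM (26.6-fold and 44.5-fold). Ramp1, a subunit of the CGRP receptor, was at 366 and 229 CPM (54.6-fold and 44.0-fold). Car10, a carbonic anhydrase-related protein without enzyme activity, was at 250.5 and 189 CPM (84.9-fold and 126-fold). Tmem163, a zinc transporter, Fkbp9, Rcan2, an inhibitor of calcineurin, Tmem176b, the RNA-binding protein gene Msi2 and the transcription factor gene Zic2 had excesses from 15.6-fold for Msi2 in WT to 72.8-fold for Zic2 in cKO. With Cxcl12, at 894 and 349 CPM (78.9-fold and 29.7-fold), these are the 15 genes with the greatest excess.

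Many of the transcription factors of the Cajal-Retzius lineage were above the levels of projection neurons. Of 32 listed, 17 were at least 4-fold above projection neurons in both libraries, against 1.06% of all genes, and Lhx1 and Lhx5 among them had chosen the cells: Lhx1, Lhx5, Ebf2, Ebf3, Nhlh1, Nhlh2, Zic1, Zic2, Zic4, Zic5, Barhl2, Nr2f2, Emx2, Dmrt3, Dmrta2, Uncx and Mab21l1. Nr2f2 (COUP-TFII) was at 616 CPM in WT (545 to 694) and 844 in cKO (759 to 936), 13.6-fold and 11.9-fold above projection neurons. Emx2, a homeobox gene of the medial cortical field and hem, had 273 CPM (227 to 326) and 351 CPM (297 to 413), 14.7-fold and 18.4-fold above. Barhl2 stood at 99.3 and 153 CPM against 0.0399 and 0.433, and Mab21l1 at 83.5 and 82.5 against 0.0797 and 0.0667. Ebf2, Nhlh1 and Uncx rested on few UMIs (3 and 8, 3 and 5, 7 and 6) and missed the criteria without the cell with most of each in each library. Ebf3 had 47 and 87 UMIs in these cells, and projection neurons had 0 of it in cKO. Of the signals of the cortical hem itself, Lmx1a (4 and 2 UMIs) and Rspo1 were above projection neurons, the former not without the cell with most of it, and 10 of the 14 genes listed had any UMI.

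On the other side, Emx1, a homeobox gene of the cortical projection neuron lineage, was lower than in projection neurons, at 11.3 CPM in WT and 18.9 in cKO against 63.5 and 117. Of 14 genes of projection neuron identity, those at least 4-fold lower in both libraries included Neurod1, Neurod2, Neurod6, Fezf2, Mef2c, Pou3f2 and Pou3f3, against 0.389% of all genes. Neurod2 was at 56.4 and 44.8 CPM against 602 and 694, but projection neurons were defined by Neurod2 and Neurod6, so those counts follow from the definition. Nr4a2, a marker of the subplate, was at 4.51 and 4.72 CPM against 63.9 and 65.2, while the subplate list's Nxph4 and Tmem163 were above.

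The transmitter genes were those of a glutamatergic neuron of the VGLUT2 kind. Slc17a6 (VGLUT2) was at 282 CPM in WT and 224 in cKO, 8.80-fold and 4.53-fold above projection neurons. Without the cell with most of it in each library it was 7.57-fold and 3.96-fold above, under the 4-fold line in cKO. Slc17a7 (VGLUT1) at 2.26 and 2.36 CPM was below the 32.8 and 22.1 of projection neurons. Gad1 had 4 and 1 UMIs and Gad2 0 and 0, which the rule required. Among calcium-binding proteins, Calb2 (calretinin) was at 476 and 623 CPM (6.78-fold and 6.68-fold above) and Calb1 at 85.8 and 35.4 CPM, with 19 of its 38 WT UMIs in the deepest cell, while Necab1 and Cabp1 were below. Calb2 was uneven, with UMIs in 22 of 32 WT and 21 of 34 cKO cells and up to 83 in a cell. Of 29 ion channel genes, Kcnh7, Cacna2d1 and Cacna2d2 were above, against 1.06% of all genes. None of the 19 GABA and glycine receptor genes was 4-fold above or below projection neurons in both libraries, nor any of the 15 dissociation and stress genes.

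Genes of Reelin reception were counted in the cells that make it. Vldlr stood at 42.9 CPM in WT and 23.6 in cKO against 53.7 and 59.3 in projection neurons, Lrp8 at 45.1 and 89.6 against 94.8 and 110.2, and Dab1 at 65.4 and 84.9 against 272 and 220.4 in projection neurons. None of the 15 genes of receptors and transducers was 4-fold above or below in both libraries. After thinning to 2000 UMIs, Dab1 was found in 9.38% of WT and 3.03% of cKO cells, against 3.70% and 3.23% of microglia. Lrp8 was found in 1 of 32 (3.12%) and 7 of 33 (21.2%), against 1.85% and 6.45% of microglia and 20.5% and 24.0% of projection neurons. Vldlr was found in 5 of 32 (15.6%) and 1 of 33 (3.03%), against 1.85% and 0 of 31 microglia and 9.47% and 10.8% of projection neurons. The shares of Dab1 in cKO and of Lrp8 in WT were thus at or near the level of microglia, and with so few cells these detections may be background RNA. Of 30 guidance genes 4 were above and 4 below projection neurons, against 1.06% and 0.389% of all genes. Cxcr4, the Cxcl12 receptor by which these cells are kept at the pia, was at 54.2 and 47.2 CPM, 19.1-fold and 7.37-fold above projection neurons. Cxcl12, Unc5b and Cdh4 were also above, and Plxna4, Nrp1, Epha4 and Ephb1 below. Of 14 genes of the p53 family and its targets, Trp73, which chose the cells, Cdkn1a, Sesn2 and Perp were above projection neurons, against 1.06% of all genes, with Cdkn1a, an inhibitor of the cell cycle, at 70.0 and 84.9 CPM. Cdkn1a and Sesn2 missed the criteria without the cell with most of each in each library. Of 19 apoptosis genes, Diablo, a mitochondrial antagonist of caspase inhibitors, was the only 4-fold difference, at 384 and 429 CPM (7.68-fold and 10.9-fold).

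Markers of other cell types were counted in the same cells. Of the 8 microglial genes, 6 were at 0 in each library, C1qa, C1qb, C1qc, Cx3cr1 and Fcer1g among them, and the summed level was 4.51 CPM in WT and 7.07 in cKO. Of the 8 endothelial genes, Cldn5, Flt1, Cdh5, Tie1 and Esam were at 0, while Egfl7, Pecam1 and Kdr put UMIs in 8 WT and 7 cKO cells, a summed level of 22.6 and 18.9 CPM against 73.5 and 16.3 in projection neurons. Of the 8 meningeal fibroblast genes, Col3a1, Dcn, Lum and Aldh1a2 were at 0 and Col1a1 and Col1a2 had 0 UMIs in WT and 1 each in cKO. Islr, on the same list, had 24 UMIs in 13 WT cells and 10 in 7 cKO cells (54.2 and 23.6 CPM) and was at least 4-fold above projection neurons in both libraries. It shares exon bases on the same strand with Islr2, so part of these counts may be of that neighbour. The summed fibroblast level was 54.2 and 30.7 CPM against 5.86 and 2.70. The 5 genes of oligodendrocyte precursors had UMIs in 7 WT and 4 cKO cells. Their summed level was 67.7 and 11.8 CPM, against 34.0 and 14.9 in projection neurons. Cspg4 among them (11 and 4 UMIs) was at least 4-fold above projection neurons, but not without the cell with most of it in each library. Radial glial genes were more abundant: the summed level of the 10 listed was 2227 CPM in WT and 342 in cKO. In WT much of it came from a few cells. Taking at least 10 UMIs of Fabp7, Slc1a3, Apoe and Aldoc together as the line, a choice made after seeing the data, 4 WT cells and 0 cKO cells lay above it, and these 4 held 434 of 441 Fabp7, 52 of 53 Slc1a3, 148 of 151 Apoe and 43 of 46 Aldoc UMIs.

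The 4 cells differed among themselves. Those with 23509 and 22472 UMIs had 74 and 61 Reln UMIs beside 217 and 24 of Fabp7. The latter also held 7 of the 8 Olig1, 4 of the 5 Olig2 and 4 of the 4 Pdgfra UMIs of WT, genes of oligodendrocyte precursors. Those with 8720 and 7854 UMIs had 3 and 7 Reln UMIs beside 41 and 152 of Fabp7. The former also held 24 of the 26 Foxj1 UMIs, a ciliated-cell gene. It met the rule through 4 UMIs of Trp73, with 0 of Lhx1, Lhx5, Ndnf and Nhlh2, so its own markers go against the name. The latter had 1 UMI each of Trp73, Lhx1, Lhx5, Ndnf and Nhlh2. Together the 4 cells gave 145 of the 1030 Reln UMIs in WT. Without them 184 of the 987 radial glial UMIs of WT remained, a summed level of 484 CPM against 342 in cKO. The doublet call marked the cell with 23509 UMIs and not the other 3. Whether they carried free RNA or were cells of another kind was not tested. Library ratios that they moved beyond the counting interval are given with and without them.

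The comparison of the libraries asked what differed within Cajal-Retzius cells. Of 6179 genes with at least 20 UMIs over both libraries, 152 (2.46%) were at least 2-fold higher in cKO with intervals apart, and 324 (5.24%) were at least 2-fold lower. The median log2 ratio of cKO over WT was -0.026 (-0.042 to -0.0050), and the scaling of the trimmed mean of M-values (TMM) moved it to 0.056. The balance of the counts depended on the setting. With TMM factors 206 genes (3.33%) were higher and 273 (4.42%) lower. Without the 4 WT cells with glial genes 164 (2.78%) and 269 (4.57%) of 5889 were. Many of these genes lay on the same side in other cells of the same libraries. Of the 152 higher genes, 142 (93.4%) were higher in projection neurons, against 45.9% of all 6179 genes, and 140 (92.1%) in the cells outside the limit, against 50% of them. There 41 (27.0%) and 30 (19.7%) met the same criteria, against 2.12% and 1.73% of all 6179. Of the 324 lower genes, 292 (90.1%) were lower in each, against 54.1% and 50% of all, and 166 (51.2%) and 91 (28.1%) met the criteria, against 9.03% and 3.66%. The median log2 ratio of all genes tested was -0.21 in projection neurons and -0.029 in the cells outside the limit. More than 50% of the UMIs came from a single cell for 3 of the higher and 15 of the lower genes.

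On the list of Cajal-Retzius markers, 4 of which chose the cells, 0 of 10 were 2-fold higher with intervals apart and 1, Ndnf, was lower. Per 10000 UMIs of the cell, the median of Ndnf was 12.2 in WT and 3.37 in cKO. Of the 34 cKO cells 4 lay above the WT median, and of the 32 WT cells 25 lay above the cKO median. The cells overlapped, with an upper quartile of 6.74 in cKO and a lower quartile of 5.18 in WT. The log2 ratio was -1.29 (-1.53 to -1.06). The cells outside the limit, which the rule had left out, showed the same direction: 974 Ndnf UMIs in WT and 842 in cKO (1630 and 899 CPM), a log2 ratio of -0.86 (-0.99 to -0.72), with 1 of 42 cKO cells above the WT median of 14.9 and 35 of 35 WT cells above the cKO median of 8.01. After thinning, Ndnf was found in 71.9% of WT (23 of 32) and 45.5% of cKO Cajal-Retzius cells (15 of 33), against 0 of 54 and 0 of 31 microglia.

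Ndnf was also lower in the other neurons of the cKO library. It was at 25.5 CPM in WT and 1.28 in cKO interneurons (log2 ratio -4.31), and at 2.39 and 0.267 CPM in projection neurons (-3.16). In interneurons the WT value came from 155 UMIs in 23 of 797 cells, up to 45 in a cell, against 9 UMIs in 7 of 904 cKO cells. The log2 ratio in Cajal-Retzius cells was the less negative. With 0.5 UMIs added to each sum, the difference of log2 ratios was 1.80 (0.74 to 2.86) against projection neurons and 2.95 (1.98 to 3.92) against interneurons. These intervals cover counting error alone. The level in projection neurons was near the limit of detection in both libraries. Outside neurons, an Ndnf UMI was found in 20.3% of WT and 8.11% of cKO endothelial cells (chosen by Cldn5 and Flt1). In fibroblast-like cells (chosen by Col1a1, Col1a2 and Col3a1) it was found in 23.1% and 7.69%. After thinning these shares were 2.14% and 1.47%, and 1.92% and 0 of 25 cells.

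Nhlh2 and Lhx1os stood on the other side. Nhlh2 was at a log2 ratio of 0.54 (0.32 to 0.76), and at 0.47 (0.33 to 0.62) in the cells outside the limit, and 23 of 34 and 33 of 42 cKO cells lay above the WT medians. Lhx1os was at 0.97 (0.61 to 1.33) and 0.67 (0.37 to 0.99), with 29 of 34 and 36 of 42 cKO cells above the WT medians. Neither reached 2-fold. Calb2 stood at 0.39 (0.12 to 0.65) and 0.31 (0.17 to 0.46), but 1 cKO cell held 83 of its 264 cKO UMIs. Without that cell it was at 467 CPM in cKO against 476 in WT (-0.03, -0.32 to 0.26), and the stricter filter on cells (1000 genes, 5% mitochondrial) gave -0.55. Reln and Trp73 chose the cells, so their ratios are a description and support nothing: Reln was at 0.22 in these cells and 0.26 outside the limit, and Trp73 at -0.65 and -0.52.

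**Figure D4:**
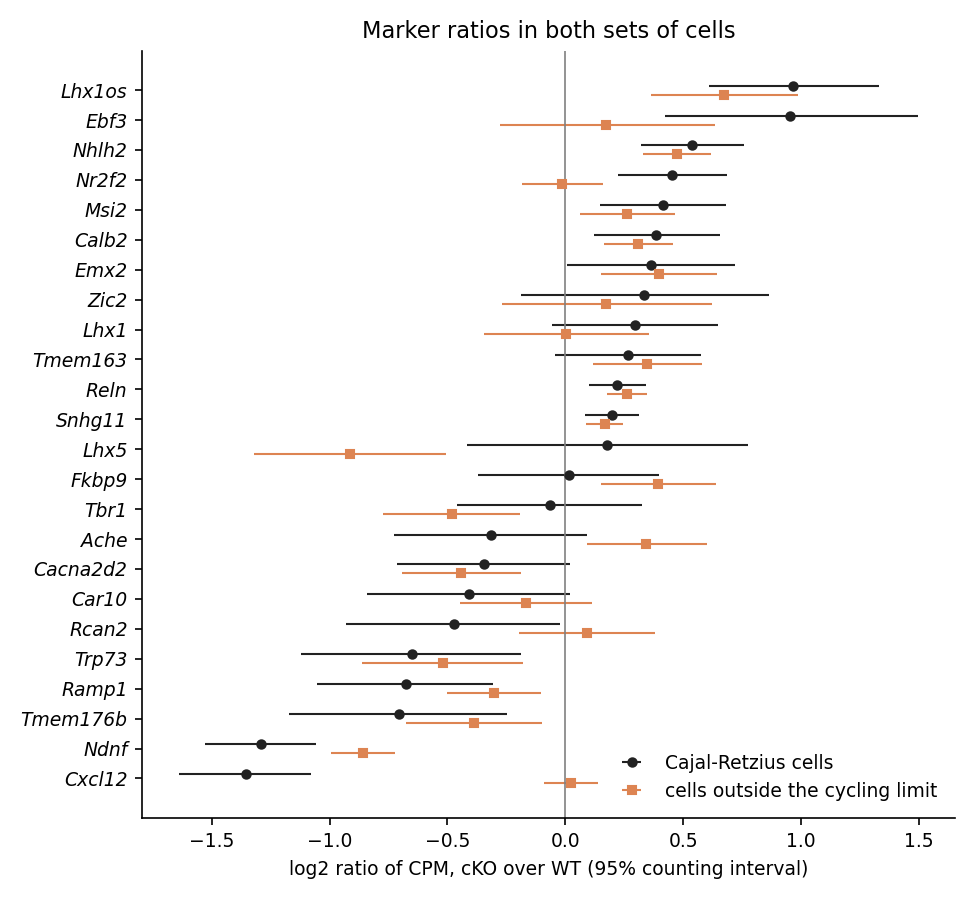
Log2 ratio of CPM, cKO over WT, of 24 marker genes in Cajal-Retzius cells (circles) and in the cells outside the cell cycle limit (squares), with 95% counting intervals. Ndnf lies at -1.29 and -0.86 and Lhx1os at 0.97 and 0.67, whereas Cxcl12 lies at -1.36 in the Cajal-Retzius cells and 0.02 in the cells outside the limit.

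The libraries did not always differ in the same way within and outside the limit. Cxcl12, a chemokine best known in this tissue from the meninges, had 396 UMIs in 22 WT cells and 148 in 20 cKO cells, or 894 (808 to 986) and 349 CPM (295 to 410.0). The log2 ratio was -1.36 (-1.64 to -1.08). In the cells outside the limit it had 1011 and 1611 UMIs, 1692 and 1719 CPM, a log2 ratio of 0.02 (-0.09 to 0.14), and 22 of 42 cKO cells lay above the WT median. The size of its ratio therefore depended on which cells were taken, at -0.07 with the limit on Mki67 and Top2a alone and -0.51 after thinning. Ebf3 had log2 ratios of 0.95 (0.42 to 1.5) within the limit and 0.17 (-0.28 to 0.64) outside it. In the reverse pattern, with the interval off 0 only outside the limit, Lhx5, a gene of the rule, stood at 0.18 (-0.42 to 0.78) and -0.91 (-1.32 to -0.51), and Ache at -0.32 (-0.73 to 0.09) and 0.34 (0.09 to 0.60).

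By gene group, few members met the 2-fold criteria against 2.46% and 5.24% of all genes tested. Of the 20 lineage transcription factors tested, 0 were higher and 0 lower, and their median log2 ratio was 0.28. Of 10 genes of the p53 family and targets, Mdm2, a ligase for p53, and Phlda3, a p53-induced inhibitor of Akt, were higher. Mdm2 had 18 and 51 UMIs, or 40.6 and 120.3 CPM. Its log2 ratio was 1.57 (0.77 to 2.43), and it was also higher in projection neurons (1.33) and interneurons (1.19). In the cells chosen again after thinning to 2000 UMIs, the ratio of Mdm2 was -0.46. Phlda3 had 29 UMIs in the WT and 60 in the cKO cells, or 65.4 and 141 CPM. Its log2 ratio was 1.11 (0.45 to 1.80), against ratios of -0.45 in projection neurons and -0.98 in interneurons. Of 9 apoptosis genes, 3 of nucleic acid sensing, a list that holds the STING pathway, and 14 of synaptic release, 0 met the criteria, and the medians were 0.16, -0.34 and -0.49. The study examined more genes by name than were listed here. Those listed (Emx2, Lhx2, Arpp21, Limch1, Bcl11b, Alx4, Htr2c, Dnah6 and Slc4a5) gave 5 tested and 0 past the criteria. Emx2 was at 0.36 (0.01 to 0.72) and Lhx2 at 0.26 (-0.15 to 0.67).

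Among receptor, channel and activity genes the counts were small, against 2.46% of all genes higher and 5.24% lower. Of 13 Reelin receptor and transducer genes tested, 1, Rapgef1, an exchange factor downstream of Dab1, was higher (8 and 26 UMIs, log2 ratio 1.76, 0.58 to 3.12), and the median was 0.32. It missed the criteria without the cKO cell with most of it, and its ratio was -1.66 in the cells chosen again after thinning. Of 11 GABA and glycine receptor genes, Gabrb1 (19 and 4 UMIs) and Glrb (44 and 19 UMIs) were lower. Gabrb1 missed the criteria without the 4 WT cells with glial genes (7 and 4 UMIs, -0.96, -3.18 to 1.01) and stood at 1.51 after thinning. Glrb missed them without the deepest cell of each library (40 and 17 UMIs, -1.11, -2.02 to -0.26). Of 8 glutamate receptor genes Grm5 (21 and 1 UMIs) was lower, with its WT UMIs in 6 of 32 cells and 81.0% of them in 3, and the median of the list was -0.69. Scn2a1, a voltage-gated sodium channel, was lower among 17 channel genes (63 and 23 UMIs, -1.39, -2.15 to -0.68). Of its WT UMIs 17 lay in 1 cell, and without the deepest cell of each library it missed the criteria (46 and 21 UMIs, -1.01, -1.82 to -0.23). Calb1 was lower among 8 calcium-binding genes (38 and 15 UMIs, -1.28, -2.25 to -0.38), but without the deepest WT cell 19 UMIs were left in WT beside 15 in cKO (46.6 and 35.4 CPM, -0.40, -1.48 to 0.66) and missed the criteria. Of 7 immediate early genes, Jun was lower (69 and 11 UMIs, -2.59, -3.65 to -1.66) and Egr1 had 20 UMIs in WT and 0 in cKO. Without the 4 WT cells with glial genes, Jun had 34 and 11 UMIs (-1.78, -2.91 to -0.77) and Egr1 11 and 0, and both still met the criteria. Fos stood at 117 and 127 CPM. Of 8 stress genes Hsph1 was lower (42 and 12 UMIs, -1.74, -2.81 to -0.79). Jun (-1.60), Hsph1 (-1.68) and Scn2a1 (-0.79) were on the same side in the cells outside the limit.

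The lowest ratios of all rested on few cells. Radial glial genes gave 5 of 6 tested as lower (Slc1a3, Fabp7, Vim, Mt3 and Aldoc), against 5.24% of all genes, and none of the 5 met the criteria without the 4 WT cells with glial genes. Fabp7, a fatty-acid binding protein of radial glia, had 441 WT and 5 cKO UMIs, a log2 ratio of -6.40 (-8.03 to -5.17). Without the 4 WT cells with glial genes, and with 0.5 UMIs added to each sum, the ratio was -0.60 for Fabp7 (7 and 5 UMIs), 0.50 for Apoe (3 and 5) and -0.16 for Vim (21 and 21). Slc1a3, with 53 UMIs in WT and 0 in cKO, had 1 and 0 left, which allows no ratio. Aldoc moved from -3.67 to -0.16 and Mt3, a metallothionein of the brain, from -2.34 to -0.38. In the cells chosen again after thinning, Mt3 stood at 2.74 and Vim at 0.67. Foxj1, with 26 UMIs in WT and 0 in cKO, had 1 and 0 left. Of the 10 lowest ratios, those of Ptprz1, a receptor phosphatase, Clu, which encodes clusterin, Cd9, a tetraspanin, and Dbi, the diazepam binding inhibitor, were also moved by these cells. Ptprz1 had 106 and 4 UMIs and moved from -4.50 to -1.07. Clu had 66 and 5 UMIs and moved from -3.53 to -1.55, Cd9 had 56 and 4 and moved from -3.59 to -1.94, and Dbi had 470 and 68 and moved from -2.72 to -0.98. None of the 4 met the criteria without these cells, but for 3 the interval stayed below 0 (-3.47 to -0.09 for Clu, -4.11 to -0.41 for Cd9 and -1.44 to -0.55 for Dbi). Cck and Nrgn, genes of projection neurons, had 74.6% and 84.0% of their WT UMIs in the deepest WT cell. Their ratios of -3.25 and -4.12 became -1.22 and -1.46 without the deepest cell of each library, where Nrgn missed the criteria, and Cck stood at 1.6 after thinning. Pmepa1, an inhibitor of TGF-beta signalling, had 103 UMIs in WT against 14 in cKO, or 232 against 33.0 CPM. Its WT UMIs lay in 12 of 32 cells, with 68.9% of them in the highest 3. Its log2 ratio was -2.82 (-3.74 to -2.0), which was -2.85 without the 4 cells (0.5 UMIs added) and -2.79 (-3.86 to -1.87) without the cell with most of it in each library, and it stood at -1.51 (-1.88 to -1.15) in the cells outside the limit. It was lower in projection neurons too (-2.09).

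**Figure D5:**
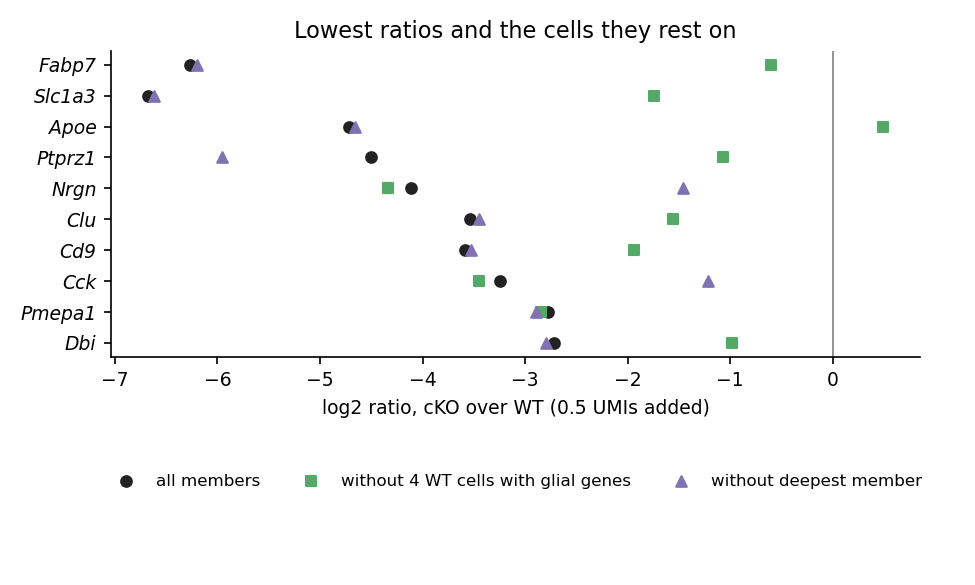
Log2 ratio, cKO over WT with 0.5 UMIs added, of the 10 genes with the lowest ratios in Cajal-Retzius cells, in all the cells (circles), without the 4 WT cells with glial genes (squares) and without the deepest cell of each library (triangles). Fabp7, Slc1a3, Apoe and Ptprz1 move most without the 4 cells, Nrgn and Cck without the deepest cell, and Pmepa1 stays near -2.8.

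The highest ratios lay on the same side of 0 in the other neurons. Gm8730, a processed pseudogene whose counts may belong to its parent gene, had 9 UMIs in WT and 235 in cKO, a log2 ratio of 4.77 (3.82 to 5.92), against 4.67 in projection neurons and 4.88 in interneurons. Arrdc4, an arrestin-domain protein, had 7 and 89 UMIs (3.73, 2.63 to 5.09), and the noncoding Gm26917 17 and 122 (2.91, 2.17 to 3.73). The 10 highest were ranked with 10 CPM added to each level, without Xist and other sex-linked genes, or those of mitochondria and haemoglobin. The other 7 of them were Zfp560 (22 and 69 UMIs, 1.71), Thoc3 (18 and 56, 1.70), Gm6483 (28 and 82, 1.61), 2310035C23Rik (18 and 54, 1.65), Tmcc1 (18 and 54, 1.65), Mycl (31 and 87, 1.55) and Riok3 (27 and 75, 1.54). All 7 had lower ratios in projection neurons, from 0.48 for Tmcc1 to 1.08 for Thoc3, and in interneurons, from 0.50 for Tmcc1 to 1.17 for Thoc3, and outside the limit they ran from -0.02 for Tmcc1 to 1.58 for Thoc3. Dmrtb1 and C1ql1, a synaptic organiser of the complement C1q family, had ratios beyond those of both other neuron classes. Dmrtb1 had 5 and 26 UMIs (2.44, 1.04 to 4.18), and C1ql1 12 and 26 (1.18, 0.14 to 2.30). C1ql1 stood at -0.35 and Dmrtb1 at 0.59 in the cells outside the limit, and C1ql1 at -0.070 after thinning. Foxp2, a gene of deep-layer neurons, was higher in sum (4 and 29 UMIs), but 28 of its 29 cKO UMIs lay in a single cell. That was the cell of 36340 UMIs with 0 of Trp73 and Ndnf.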

How the data were processed

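Single-cell RNA was sequenced on the 10x Genomics platform from 1 WT and 1 cKO library, grouped by the genotype in the labels. The authors deposited raw UMI counts per gene (27998 genes) and barcode for each library, with no normalization. The file headers name Cell Ranger 3.0.1 and the submitters' processing notes name Cell Ranger 2, STAR, Seurat and mm9. How cells were called, the annotation and the strand setting are not given in the sources used here. A combined matrix and a table of the authors' own cluster comparison (fold changes, shares of cells and p-values) were not used here. Barcodes were filtered and chosen as the text states, and members and gene lists were chosen with earlier results of these data known.

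UMIs were summed over the cells of a class in each library and scaled to CPM, with exact Poisson intervals. Ratios carry exact conditional binomial intervals, shares Clopper-Pearson intervals, and differences of log2 ratios a normal interval from the counts. A gene was counted as different between libraries at 2-fold with Poisson intervals apart and at least 20 UMIs, and between classes at 4-fold in both libraries with intervals apart. No p-value is given, because cells of a library are not replicates. Projection neurons (at least 3 UMIs of Neurod2 and Neurod6, at most 1 of Gad1 and Gad2, 0 of Eomes) were 2438 WT and 2731 cKO cells, and interneurons (at least 3 of Gad1 and Gad2, at least 1 of Dlx1, Dlx2, Dlx5 and Dlx6os1) 797 and 904, both under the same cell cycle limit. Microglia had at least 5 UMIs of C1qa, C1qb and C1qc. The analysis was tested on simulated data. The genes to name were the 15 of greatest excess over projection neurons (10 CPM added). Added to them were the 10 highest and 10 lowest library ratios with at least 50 UMIs in either library. Up to 4 of each list by UMIs and any past the criteria were also taken. So were the 3 highest and 3 lowest differences of ratios from both other neuron classes, the genes of the rule and those listed from the study. Of the most abundant genes of each list, the text prints those a result turns on. Other genes named were chosen after their values were seen. Doublets were scored with Scrublet in scanpy 1.11.5, and TMM factors were taken from edgeR 4.0.16 in R 4.3.3 for scaling alone. Python 3.11.15, numpy 2.4.6, scipy 1.17.1, pandas 2.3.3 and matplotlib 3.10.9 were used. Alternatives were other filters, thresholds, scalings and the removal of doublets or of named cells. All 169 genes of the naming rule matched GENCODE M21 by identifier, and 10 shared exons with a gene on the same strand and 46 with a gene on the other strand. Some results are not reported here.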

Additional observations from a re-analysis of the deposited data

Results flagged for a closer look

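In the 7 genes flagged, the log2 ratio of cKO over WT in Cajal-Retzius cells lay on the opposite side of 0 from both projection neurons and interneurons. Other genes may do so too. With 1 library per genotype the difference between the classes was not tested. Mt1, a metallothionein, stood at -2.82 against 0.54 and 0.57. Phgdh, of serine synthesis, stood at -1.71 against 0.41 and 0.93, Ezr, which encodes ezrin, at -1.67 against 0.24 and 0.28, and the RNA-binding protein gene Qk at -1.49 against 0.36 and 0.61. Mt1, Phgdh and Qk rested on the 4 WT cells with glial genes. Without those cells Mt1 had 1 UMI in WT and 5 in cKO, Phgdh 1 and 7, Qk 11 and 15 (log2 ratio 0.29, -0.93 to 1.56). Ezr kept most of its ratio without them, at 22 and 9 UMIs (-1.45, -2.75 to -0.27). None of the 4 genes met the 2-fold criteria there. Foxp2 stood at 2.92 against -0.45 and -0.47, and 28 of its 29 cKO UMIs lay in 1 cell. Pde1a, a calcium-dependent phosphodiesterase, stood at 1.5 against -0.25 and -1.94, and Phlda3 at 1.11 against -0.45 and -0.98. In the cells outside the cell cycle limit, Pde1a stood at 0.35, Phlda3 at 0.42, Mt1 at -1.65, Qk at -0.47, Ezr at -0.40 and Phgdh at 1.09, the last on the other side of 0.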

How the results depend on the processing

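The share of Cajal-Retzius cells was higher in cKO in every setting run. The counts of genes at least 2-fold higher or lower, 1 or both, moved past 1.5 times their main values of 152 and 324 in 5 settings. The stricter filter on cells (1000 genes, 5% mitochondrial) gave 99 and 190 of 3911 genes (2.53% and 4.86%, against 2.46% and 5.24%), and thinning cells to 2000 UMIs 19 and 25 of 1606 (1.18% and 1.56%). The mean of single-cell CPM gave 239 higher and 429 lower of 6179 (3.87% and 6.94%). A minimum of 50 UMIs gave 103 and 172 of 3230 (3.19% and 5.33%). The limit on Mki67 and Top2a alone, chosen after seeing the data, gave 167 and 542 of 8768 (1.9% and 6.18%). The median log2 ratio, -0.026, became 0.0038 with Reln at least 2, 0.041 after thinning, 0.056 with TMM factors, 0.014 at 50 UMIs, -0.123 at 1 UMI and -0.062 with the limit on Mki67 and Top2a alone. Thinning leaves few UMIs, and the cells were chosen again after it, so depth and cells changed together. The ratios were then -0.29 for Snhg11, 0.35 for Rcan2, -0.013 for Msi2, 1.6 for Cck, -0.070 for Foxp2, -0.070 for C1ql1, -0.0081 for Reln, -1.66 for Rapgef1, -0.46 for Mdm2, 1.51 for Gabrb1, 2.74 for Mt3 and 0.67 for Vim. The stricter filter gave -1.97 for Foxp2 and -0.55 for Calb2. Leaving out the 4 WT cells with glial genes, chosen after seeing the data, gave 0.50 for Apoe. Leaving out the cell with most UMIs of a gene in each library, also chosen after seeing the data, reversed 0 of the named ratios whose interval lay off 0 and moved 6 ratios beyond their interval, among them Foxp2 to 0.073, Calb2 to 0.11 and Dbi to -2.19. The causes of these moves were not tested. No paired analysis was possible because each genotype has 1 library. With 32 and 34 cells, genes under 20 UMIs over both libraries were left out of the counts given. At 1 UMI, 13438 genes gave 167 higher and 403 lower.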

Other observations

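Cenpf far exceeded the other genes of dividing cells. Of the 67 WT and 76 cKO cells before the cell cycle limit, 55 and 57 held a Cenpf UMI, while Birc5 had 6 and 7 UMIs and Cdk1 3 and 0. Mki67 stood at 3.84 and 5.14 CPM, against 0.438 and 1.00 in projection neurons, and Birc5 at 5.76 and 5.14, against 1.43 and 1.97. Top2a stood at 1.92 and 3.67 CPM against 1.59 and 2.10, and Cdk1 at 2.88 and 0 against 1.55 and 0.70. Ccnb1 stood at 0.961 and 0 CPM against 0.917 and 1.07. These levels rest on few UMIs, and the projection neurons, unlike these cells, were taken under the cell cycle limit. The cells outside the limit had 259 CPM of Cenpf in WT and 253 in cKO, and the Cajal-Retzius cells 60.9 and 56.6 CPM. Their median depths also differed, at 16563 and 21620 UMIs outside the limit against 12892.5 and 9335 within it.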
